A study of Mus musculus with 12 samples.

Results

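Genes of the nuclear lamina and inner nuclear envelope were followed in mouse embryonic fibroblasts (MEFs) that lack Sirt6, or Sirt6 and RelA, before and during stimulation with TNF-α. The 7 genes were taken by name, with every probe the bead array carries for them: Lmna (5 probes), Lmnb1 (2), Lmnb2 (1), Emd (2), Lbr (1), Tmpo (3) and Banf1 (4). This gave 18 probes of 25697, and 7 genes of 16593 with a symbol. The probes of a gene are numbered here from the brightest to the dimmest by mean intensity over the arrays. They were kept apart because those of Lmna differed in which calls they gave.

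The cells were wild-type, Sirt6-/- or Sirt6-/-RelA-/- MEFs from 13.5-day embryos, grown in 15% serum and passaged 4 times. The labels give no strain or sex. Sirt6 is a chromatin deacetylase and RelA a subunit of the transcription factor NF-κB, so the question was how the 2 deletions and the cytokine bear on RNA levels. TNF-α at 20 ng/mL was given for 0, 1.5, 6 or 24 h to each genotype, and RNA of each of the 12 conditions was hybridized to 1 array. The methods say that the MEFs came from littermate embryos, and every label says replicate 1. A genotype is therefore represented by 4 arrays at 4 times, and the p-values below measure the spread between such arrays, not between embryos. Values are the authors' processed intensities on a linear scale, and a probe was tested where it reached 100 on any array, which 8530 probes did, the 18 included.

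Lamins are intermediate filament proteins that line the inner face of the nuclear envelope. A-type lamins (lamin A and C) are made from Lmna and are abundant in mesenchymal cells such as fibroblasts, while the B-type lamins of Lmnb1 and Lmnb2 stay farnesylated and attached to the membrane. Emerin (Emd), the lamin B receptor (Lbr) and the lamina-associated polypeptides (Tmpo) bind lamins and chromatin at the membrane or inside the nucleus, and barrier-to-autointegration factor (Banf1) links DNA to proteins with a LEM domain when the envelope reforms after mitosis. Loss of lamin B1 is a widely used mark of senescent fibroblasts, and mutations of LMNA cause Hutchinson-Gilford progeria in humans.

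The deleted genes and the arrays were looked at first. On wild-type arrays the brightest Sirt6 probe read 37.6 to 44.2, and on knockout arrays 11.96 or less. Rela read 172 to 187 where RelA was deleted and 674 to 1446 elsewhere. The wild-type 0 h array stood apart, with a mean correlation of 0.966 to the other arrays of its genotype, against 0.980 to 0.991 for the rest. Sirt6-/-RelA-/- arrays carried Y-linked Eif2s3y at 768 to 910 while the others were at most 2.56, so that sex and the RelA deletion cannot be told apart in the comparisons of that genotype. Of 9 fibroblast markers 8 were on the array and reached 100, and they summed to 25950 to 31090 for wild-type, to 18330 to 24670 for Sirt6-/- and to 22760 to 28010 for Sirt6-/-RelA-/- arrays. In Sirt6-/- against wild-type cells 4 of the 8 were lower (Pdgfra at -2.79, Lum at -2.27, Col1a2 at -1.32 and Thy1 at -0.81 on the log2 scale) and 1 was higher (Dcn at 0.61). Pdgfra and Lum reached 100 in wild-type cells alone, so that the rule for testing set their direction. Skeletal muscle markers (13 of 14 on the array, 8 of them reaching 100) summed to 2838 to 4178, 9685 to 11480 and 6873 to 8658 in the same order, with Myod1 and Ckm under 16 throughout. All 8 were higher in Sirt6-/- cells, with a median of 3.18, and relative to these Sirt6-/-RelA-/- cells had 6 of the 8 lower, with a median of -2.66. Of these, Tnnt1, Tnnc1, Actc1, Myl1 and Tnnc2 reached 100 on Sirt6-/- arrays alone. The rule for testing thus set their direction in both comparisons. Chrna1 read 48.4 to 57.2 in wild-type cells and reached 100 in the other genotypes, so that the rule favoured its rise with loss of Sirt6. Most of the sum in Sirt6-/-RelA-/- cells was Acta1, at 6053 to 7828. Macrophage markers (10 of 12 on the array, 4 reaching 100) summed to 1067 to 2138, 245 to 563 and 391 to 614 in that order, with Ptprc, Itgam and Fcer1g under 16. Of 6 epithelial markers 5 were on the array, with sums of 54.3 to 70.6, 233 to 290 and 59.4 to 87.0, and Cldn4 alone reached 100, at 142 to 219 on Sirt6-/- arrays, while Cdh1 and Krt5 were under 16. All 4 endothelial markers were on the array and 0 reached 100, with Cdh5 and Kdr under 16 and sums of at most 33.3. The part of such differences in the results below was not tested. In RNA from a whole culture, fewer cells of a type and less RNA per cell cannot be told apart.

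In Sirt6-/- cells, 14 of the 18 lamina probes were lower than in wild-type cells and 0 were higher (limma on log2 intensity with genotype and time as terms, Benjamini-Hochberg adjusted over all probes, threshold 0.05). Of all probes, 17.2% were lower and 23.9% higher. The median difference of the 18 probes was -0.53 on the log2 scale, against 0.05 over all probes. A pair of these probes, the dimmest of Lmnb1 and of Tmpo, reached 100 in wild-type cells alone, and a probe that enters in this way is bound to be lower elsewhere. Without them 12 of 16 were lower, with a median of -0.49, and without the wild-type 0 h array the count was 12 of 18. The falls were not equal. Tmpo, Lmnb1 and Lbr fell most, Lmnb2 and Banf1 less, Lmna least, and Emd did not move beyond its error.

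**Figure D1:**
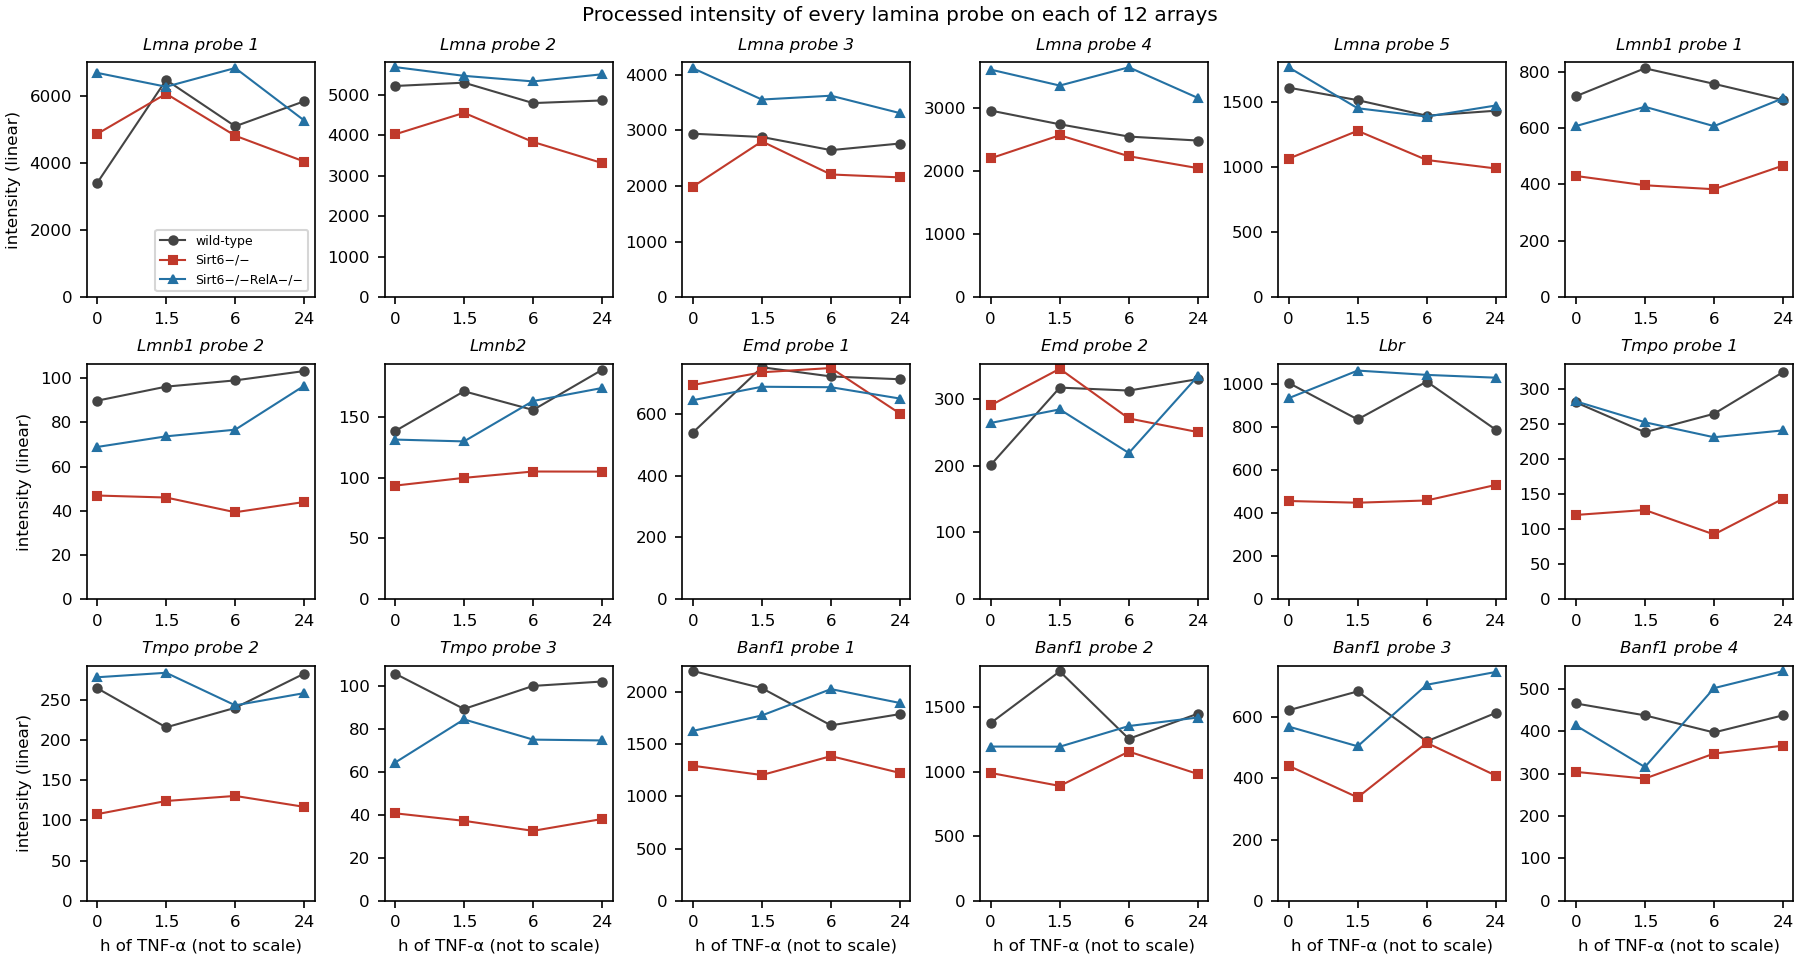
Processed intensity (linear scale, from 0) of each of the 18 probes at 0, 1.5, 6 and 24 h of TNF-α, with 1 point for 1 array. Black circles are wild-type, red squares Sirt6-/- and blue triangles Sirt6-/-RelA-/- cells. The Sirt6-/- points of Lmnb1, Lmnb2, Lbr and Tmpo lie below both other genotypes at every time, and the wild-type 0 h point is the lowest of its line for the first Lmna probe and both Emd probes.

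The A-type lamin gene was read by 5 probes. The first had intensities of 3405, 6483, 5101 and 5848 in wild-type cells at 0, 1.5, 6 and 24 h, of 4871, 6071, 4820 and 4049 in Sirt6-/- cells, and of 6694, 6280, 6838 and 5272 in Sirt6-/-RelA-/- cells. The lowest wild-type value was that of the 0 h array, and the 3 genotypes overlapped. The second had 5210, 5292, 4789 and 4854 in wild-type cells, 4017, 4549, 3831 and 3311 in Sirt6-/- cells, and 5677, 5460, 5323 and 5499 in Sirt6-/-RelA-/- cells. These 3 groups did not overlap, with Sirt6-/- cells lowest and Sirt6-/-RelA-/- cells highest. The third, which is annotated to another transcript record than the rest, had 2938, 2879, 2643 and 2762 in wild-type, 1986, 2800, 2206 and 2154 in Sirt6-/- and 4114, 3551, 3620 and 3307 in Sirt6-/-RelA-/- cells. Probe 4 had 2966, 2748, 2553 and 2490, then 2208, 2574, 2241 and 2052, then 3616, 3363, 3653 and 3166 in the same order. For both the Sirt6-/- 1.5 h array came up into the wild-type range, and Sirt6-/-RelA-/- cells were above both other genotypes. The dimmest probe had 1609, 1513, 1394 and 1432 in wild-type, 1064, 1278, 1054 and 989 in Sirt6-/- and 1765, 1451, 1387 and 1472 in Sirt6-/-RelA-/- cells, so that here Sirt6-/- cells were lowest and the other genotypes overlapped.

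Set as differences, Lmna in Sirt6-/- cells was lower than in wild-type cells by 3 of its 5 probes. By probe 2 it fell by 0.37 (SE 0.10, adjusted p = 0.0101), by probe 3 it fell by 0.31 (SE 0.11, adjusted p = 0.0479) and by probe 5 it fell by 0.44 (SE 0.10, adjusted p = 0.00439), all from limma. Probe 4 gave -0.25 (SE 0.10, adjusted p = 0.0599) and probe 1 gave -0.05 (SE 0.16, adjusted p = 0.842, interval -0.40 to 0.31). The first probe went both ways with time, at 0.52 at 0 h and -0.53 at 24 h, whereas the others were below 0 at all 4 times, between -0.60 and -0.04. Without the wild-type 0 h array the first probe gave -0.25 and did not pass. The call of the third probe was lost in 13 of 16 fits that left out an array or a time, with adjusted p of up to 0.205, and that of the second was lost without the 6 h (adjusted p = 0.0579) or the 24 h arrays (0.0501).

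The probes of Lmna were set against each other within arrays, where the scaling of the array cancels. In log2 units the first probe exceeded the second by 0.33 in Sirt6-/- and by 0.01 in wild-type cells (exact permutation test over 4 against 4 arrays, two-sided, p = 0.0857, adjusted p = 0.284). Probe 4 exceeded probe 5 by 1.05 in Sirt6-/-, 0.85 in wild-type and 1.19 in Sirt6-/-RelA-/- cells. Over the 21 probe pairs of the members and 3 genotype pairs, 63 tests in all, 10 reached the smallest p that 70 assignments allow (0.0286), and 0 passed after adjustment, where the smallest adjusted p was 0.18. Of the 10, 7 were tests of Lmna probes, such as probes 3 and 5, whose log2 ratio was 1.27 in Sirt6-/-RelA-/- and 0.92 in wild-type cells. With 5 probes Lmna supplied the most pairs of any member, and a pair could count in more than 1 genotype pair. The 7 are therefore not read as particular to Lmna. For any test to pass, 37 of the 63 would have had to reach that smallest p, so that nothing is drawn from the adjusted values.

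Lmnb1, the main B-type lamin, was lower in Sirt6-/- cells by its brighter probe. It had 712, 811, 756 and 699 in wild-type cells, 430, 397, 383 and 467 in Sirt6-/- cells and 607, 675, 607 and 705 in Sirt6-/-RelA-/- cells. The Sirt6-/- arrays were lowest, at a mean of 419 ± 37.4 (SD, n = 4 arrays), which was 56.3% of the wild-type mean of 745 ± 50.8. In log2 units it fell by 0.83 (SE 0.10, adjusted p = 4.03e-05). The dimmer probe, which reached 100 in wild-type cells alone and so gives no separate support, read 89.8, 96.1, 98.97 and 103 in wild-type cells and 46.9, 45.97, 39.3 and 43.95 in Sirt6-/- cells, and fell by 1.14 (0.11, adjusted p = 4.7e-06). It lay between 68.8 and 96.6 in Sirt6-/-RelA-/- cells. Lmnb2, the other B-type lamin, was dim, at 138, 171, 156 and 189 in wild-type cells, 93.5, 99.9, 105 and 105 in Sirt6-/- cells and 131, 130, 163 and 174 in Sirt6-/-RelA-/- cells. Sirt6-/- arrays again did not reach the other genotypes, and the gene fell by 0.69 (0.10, adjusted p = 0.000192).

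Of the membrane proteins, Lbr, a sterol reductase that also tethers heterochromatin to the envelope, had 1003, 834, 1009 and 786 in wild-type cells, 455, 447, 458 and 530 in Sirt6-/- cells and 932, 1060, 1040 and 1027 in Sirt6-/-RelA-/- cells. Its Sirt6-/- mean was 52.0% of the wild-type mean, and it fell by 0.94 (standard error 0.12, adjusted p = 3.82e-05), and the Sirt6-/-RelA-/- mean was 215% of the Sirt6-/- mean. Tmpo encodes several lamina-associated polypeptides by splicing, of which some span the inner membrane and another is soluble in the nucleus. Its first probe had 281, 238, 265 and 324 in wild-type, 120, 127, 92.3 and 143 in Sirt6-/- and 282, 252, 231 and 241 in Sirt6-/-RelA-/- cells. The second, of another transcript record, had 265, 216, 240 and 283, then 108, 124, 131 and 117, then 278, 284, 243 and 258. The third, of the same record as the second, had 106, 89.2, 99.95 and 102, then 40.7, 37.2, 32.6 and 38.1, then 64.2, 84.4, 74.98 and 74.6. All 3 put every Sirt6-/- array under every array of the other genotypes, and for the third Sirt6-/-RelA-/- cells also stayed under wild-type cells. From wild-type to Sirt6-/- cells Tmpo fell by 1.21 by its first probe (SE 0.12, adjusted p = 6.67e-06). It fell by 1.06 by the second (SE 0.12, adjusted p = 1.46e-05), and it fell by 1.42 by the third (SE 0.12, adjusted p = 1.16e-06), a probe that was tested only because wild-type cells reached 100.

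Banf1, the chromatin-binding partner of LEM-domain proteins, fell moderately by each of its 4 probes. The brightest had 2199, 2034, 1678 and 1786 in wild-type, 1292, 1203, 1384 and 1223 in Sirt6-/- and 1625, 1773, 2025 and 1892 in Sirt6-/-RelA-/- cells, and Sirt6-/- arrays lay below all others. It fell by 0.59 (standard error 0.12, adjusted p = 0.0017). The others had means of 1465, 610 and 435 in wild-type and 1005, 426 and 327 in Sirt6-/- cells, and differences of -0.54, -0.53 and -0.42 (adjusted p = 0.00525, 0.0132 and 0.0219). At 6 h the third probe was at 521 in wild-type and 516 in Sirt6-/- cells, the closest approach of the genotypes. The calls of probes 3 and 4 were lost in some fits that left out an array or a time, with adjusted p of up to 0.0975 and 0.094.

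Emd, which encodes emerin and is X-linked, did not show the fall. The brighter probe had 539, 751, 721 and 712 in wild-type, 694, 735, 749 and 601 in Sirt6-/- and 644, 688, 686 and 650 in Sirt6-/-RelA-/- cells. The dimmer had 201, 317, 312 and 329, then 290, 345, 271 and 250, then 264, 284, 219 and 334. The genotypes overlapped for both, and the lowest value of each was the wild-type 0 h array. The differences of Sirt6-/- from wild-type cells were 0.03 (interval -0.20 to 0.27, adjusted p = 0.824) and 0.01 (-0.32 to 0.35, adjusted p = 0.958), so that changes within these bounds remain possible. The signs of both turned when arrays were quantile normalized or centred on their medians.

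In Sirt6-/-RelA-/- cells, 15 of the 18 probes were higher than in Sirt6-/- cells and 0 were lower, with a median of 0.56 against 0.02 over all probes. Of all probes 16.1% were higher and 14.6% lower. Without the pair that reached 100 in wild-type cells alone, 13 of 16 were higher. This comparison shares the Sirt6-/- arrays with the one above, so that its sign is not a separate observation. Tmpo rose by 1.07, 1.15 and 1.00 by its 3 probes (adjusted p = 3.24e-05, 1.31e-05 and 4.15e-05), Lbr by 1.10 (1.63e-05), Lmnb1 by 0.63 and 0.83 (0.000554 and 0.000117) and Lmnb2 by 0.56 (0.00138). Lmna rose by 0.49, 0.68, 0.61 and 0.47 by probes 2 to 5 (adjusted p = 0.0024, 0.000695, 0.000508 and 0.00449). Its first probe gave 0.35 (adjusted p = 0.127). It passed without the wild-type 0 h array (adjusted p = 0.0261) and with only the 2 compared genotypes in the fit (adjusted p = 0.0212). The 4 Banf1 probes rose by 0.52, 0.36, 0.57 and 0.42, of which the second lay at the threshold (adjusted p = 0.0498) and lost its call in 12 of 16 fits that left out an array or a time, with adjusted p of up to 0.193. Probes 3 and 4 lost theirs in 4 and 9 such fits (up to 0.0841 and 0.12). The Emd probes gave -0.05 and -0.08 (adjusted p = 0.744 for both).

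**Figure D2:**
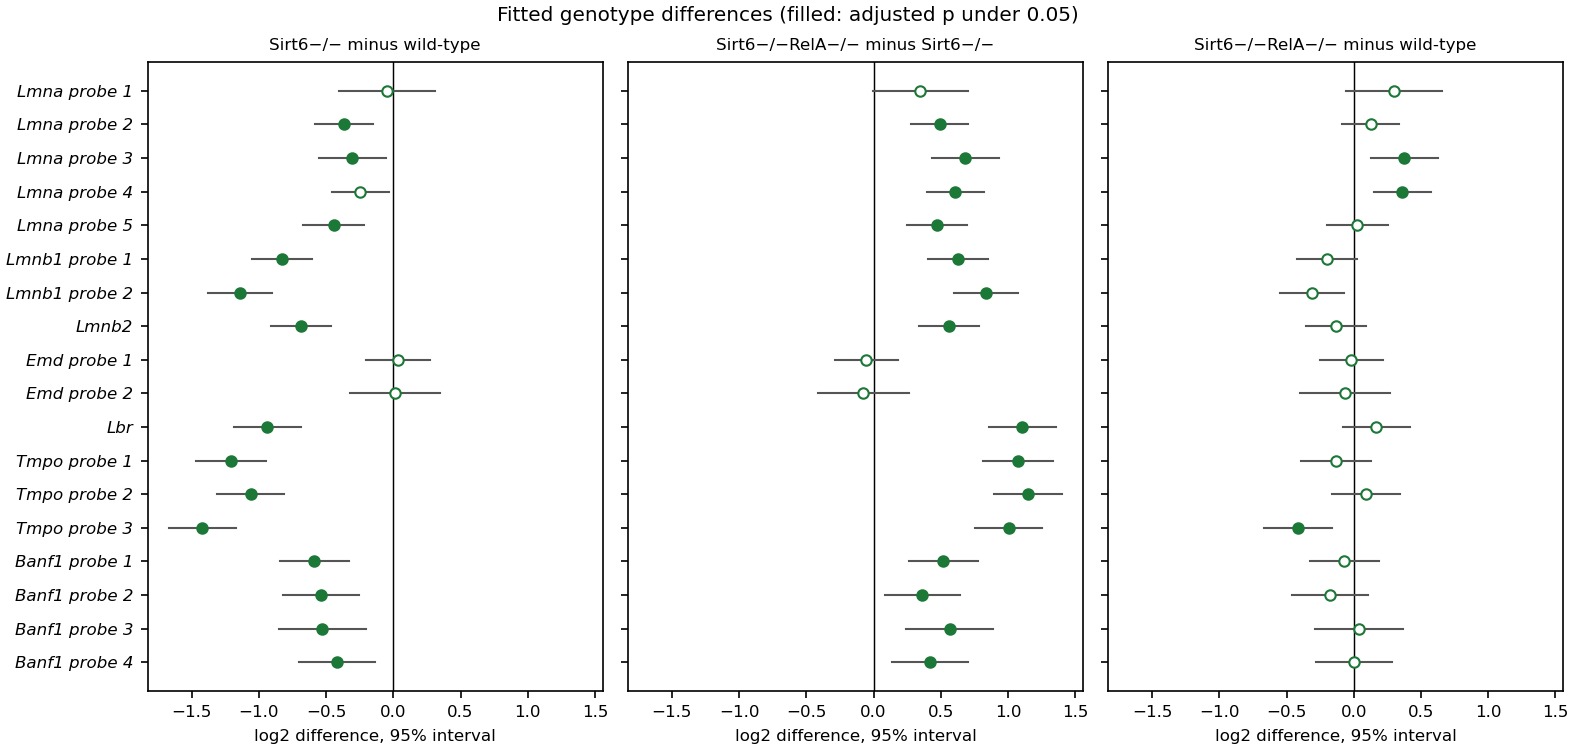
Fitted log2 difference of each probe with its 95% interval for the 3 genotype comparisons, each over 4 against 4 arrays. Filled points have an adjusted p under 0.05. Filled points lie left of 0 in the first panel (14 of 18), right of 0 in the second (15 of 18), and 3 of 18 are filled in the third.

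Set against wild-type cells, Sirt6-/-RelA-/- cells had 2 of the 18 probes higher and 1 lower, where 13.3% of all probes were higher and 5.33% lower. The 2 were probes 3 and 4 of Lmna, at 0.38 (standard error 0.11, adjusted p = 0.0389) and 0.36 (0.10, adjusted p = 0.0237), and the third Tmpo probe fell by 0.42 (0.12, adjusted p = 0.0269). That Tmpo probe reached 100 in wild-type cells alone, so that its direction was set by the filter, and without both such probes 2 of 16 were higher and 0 lower. The other Lmna probes were 0.30, 0.13 and 0.03 and did not pass. Each of these 3 calls was lost in some fits, so that the count ranged from 0 to 3 with an array or a time left out. The 15 other probes lay between -0.31 and 0.30, and for Lbr the difference was 0.17 (interval -0.08 to 0.42). Quantile normalization moved the balance of calls over all probes in this comparison from 71.4% to 59.8% higher, and with it Lmna probes 3 and 4 gave 0.19 and 0.18 with adjusted p of 0.280 and 0.224.

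Counted without a model, 13 probes had every Sirt6-/- array below every wild-type array, where 13.9% of all probes did, and 13 had every Sirt6-/-RelA-/- array above every Sirt6-/- array, against 17.9%. Sirt6-/-RelA-/- arrays lay wholly below the wild-type arrays for 1 probe (5.72% of all probes) and wholly above them for 3 (14.3%). Without the pair that reached 100 in wild-type cells alone these counts were 11, 11, 0 and 3 of 16. The Sirt6-/- difference from wild-type cells was below 0 at each time for every probe of Lmnb1, Lmnb2, Lbr, Tmpo and Banf1.

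**Figure D3:**
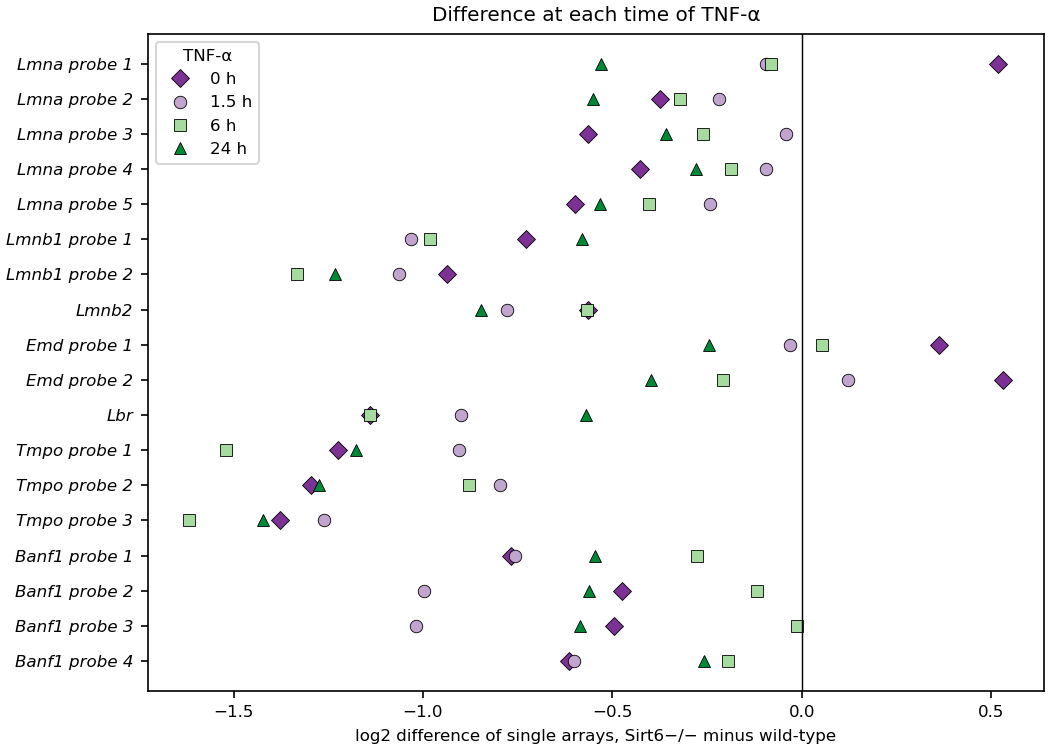
Log2 difference between the Sirt6-/- and the wild-type array at each time of TNF-α, 1 point for 1 pair of arrays, with no test. The first Lmna probe ran from 0.52 at 0 h to -0.53 at 24 h and both Emd probes were above 0 at 0 h, while all points of Lmnb1, Lmnb2, Lbr, Tmpo and Banf1 lie left of 0.

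Changes with TNF-α were small in these genes. At 1.5, 6 and 24 h, 0 of the 18 probes passed the test common to the 3 genotypes, where 0.164%, 0.715% and 1.75% of all probes did, and 0, 0 and 1 had an unadjusted p under 0.05. That probe was Lmnb2, at 0.34 at 24 h (standard error 0.12, adjusted p = 0.241), and it was higher at 24 h than at 0 h in all 3 genotypes. Of 162 steps from 0 h in single arrays, 0 reached 1 on the log2 scale in either direction, and 156 were under 0.5, with a range of -0.39 to 0.93. The steps of 0.5 or more were all of wild-type cells. They belonged to the first Lmna probe (0.93, 0.58 and 0.78 at 1.5, 6 and 24 h) and the dimmer Emd probe (0.66, 0.64 and 0.71). All 6 start from the wild-type 0 h array, and the same array gave 0.02, -0.12 and -0.10 for the second Lmna probe.

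Taken over the treated times, the wild-type response passed for 1 of the 18 probes, where 11.1% of all probes passed. It was the first Lmna probe, at 0.76 (standard error 0.22, adjusted p = 0.0499), and it rests on that 1 untreated array. Whether responses differed between genotypes was tested as an interaction. In Sirt6-/- against wild-type cells, in Sirt6-/-RelA-/- against Sirt6-/- cells and in Sirt6-/-RelA-/- against wild-type cells, 0 of 18 probes passed in each, where 0.0352%, 0.0% and 0.785% of all probes did, and 1, 0 and 1 had an unadjusted p under 0.05. The largest differences were those of the first Lmna probe, at -0.75 (adjusted p = 0.307) and -0.90 (adjusted p = 0.139) relative to wild-type cells. With 1 untreated array per genotype the intervals were wide, and for the second Lmna probe that of Sirt6-/- against wild-type cells was -0.52 to 0.54.

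Promoters are shown for genes at the ends of this range. Lbr and Tmpo fell by about 1, Lmna less, and Emd not measurably. RefSeq promoters (GRCm38.p6, 250 bases before to 50 after a start site) were found for 6 of the 7 genes, 10 in all. Both strands were searched for CCAAT, the cell cycle element CHR (TTTGAA), the E2F motif (TTTCCCGC, TTTCGCGC, TTTGCCGC or TTTGGCGC), the GC box (GGGCGG) and the NF-κB motif, and matches are in capitals, on the strand shown or as the reverse complement. The promoters are Lbr at chr1:181842352-181842651, Tmpo at chr10:91171570-91171869 and Lmna at chr3:88503303-88503602, all on the minus strand, and Emd at chrX:74254437-74254736 on the plus strand, each written 5′ to 3′ along its gene.
Lbr: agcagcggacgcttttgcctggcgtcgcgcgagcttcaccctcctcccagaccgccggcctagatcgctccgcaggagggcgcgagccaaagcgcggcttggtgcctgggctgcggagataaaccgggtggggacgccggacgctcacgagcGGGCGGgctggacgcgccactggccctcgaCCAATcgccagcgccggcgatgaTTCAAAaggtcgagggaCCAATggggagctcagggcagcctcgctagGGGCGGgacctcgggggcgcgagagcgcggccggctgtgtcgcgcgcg
Tmpo: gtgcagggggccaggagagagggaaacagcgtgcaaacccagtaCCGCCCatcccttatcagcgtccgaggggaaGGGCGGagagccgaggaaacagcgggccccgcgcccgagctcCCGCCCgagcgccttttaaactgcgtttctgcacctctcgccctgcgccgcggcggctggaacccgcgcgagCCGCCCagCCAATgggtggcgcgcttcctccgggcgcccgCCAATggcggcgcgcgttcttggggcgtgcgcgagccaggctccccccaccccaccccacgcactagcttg
Lmna: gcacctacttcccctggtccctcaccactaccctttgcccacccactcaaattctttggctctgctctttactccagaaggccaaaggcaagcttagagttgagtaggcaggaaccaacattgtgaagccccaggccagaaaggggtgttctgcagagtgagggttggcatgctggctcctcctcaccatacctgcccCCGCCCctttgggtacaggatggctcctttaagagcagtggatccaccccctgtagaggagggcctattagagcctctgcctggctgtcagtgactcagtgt
Emd: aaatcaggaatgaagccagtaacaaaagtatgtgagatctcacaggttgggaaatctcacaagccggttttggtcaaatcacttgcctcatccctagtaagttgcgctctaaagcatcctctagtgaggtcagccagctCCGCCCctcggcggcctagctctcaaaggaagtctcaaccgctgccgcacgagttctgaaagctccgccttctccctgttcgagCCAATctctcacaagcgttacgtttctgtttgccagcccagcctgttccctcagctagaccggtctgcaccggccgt

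The Lbr promoter held CCAAT beginning at -68 and -28 from the start site with a CHR between them at -45, and the Tmpo promoter CCAAT at -53 and -21. Emd held CCAAT at -27, and this Lmna promoter a GC box alone, at -52. The GC box was also in the other promoters shown, with 2 in Lbr, 4 in Tmpo and 1 in Emd. A second Lmna promoter held CCAAT at -131, a second Tmpo promoter a CHR and an E2F motif, and a Banf1 promoter an E2F motif that overlapped a GC box. The NF-κB motif was in 0 of the 10. Of all 32851 promoters, 37.4% held CCAAT, 17.9% CHR, 2.26% the E2F motif, 35.7% the GC box and 8.46% the NF-κB motif. Such matches describe letters in a window.

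The rest of the nuclear envelope was read from gene lists, each gene by its brightest tested probe. In Sirt6-/- against wild-type cells 24.9% of 6096 genes were higher and 16.8% lower, and in Sirt6-/-RelA-/- against Sirt6-/- cells 15.9% were higher and 14.7% lower. Of 19 nuclear pore genes 8 were lower and 0 higher, with a median of -0.28 against 0.06 over all genes. That median was the value of Nup155. On every Sirt6-/- array Nup155 (at most 81.97) and Nup50 (at most 89.88) stayed below the intensity that the rule for testing requires. Nup155 stayed below it on Sirt6-/-RelA-/- arrays too, at 86.54 or less. The rule thus favoured a fall of both genes with loss of Sirt6, and the median includes them. Neither was among the 8 (adjusted p = 0.051 for Nup155 and 0.138 for Nup50). Nup107, Nup43 and Nup85, parts of the scaffold of the pore, fell by 0.86, 0.85 and 0.83 (adjusted p = 0.00093, 2.31e-05 and 0.000496), and 7 of the 19 rose in Sirt6-/-RelA-/- against Sirt6-/- cells. Of 9 genes of the inner membrane and the LINC complex, which couples the nucleus to the cytoskeleton, 2 were lower and 2 higher. Nrm (nurim), a membrane protein, fell by 0.83 (adjusted p = 0.000258) and Tor1aip1, which binds lamins and torsin, by 0.60 (0.000218), while Tmem43 rose by 0.39 (0.00385) and Tor1aip2 by 0.39 (0.0117).

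Of 6 genes that process lamins, Fnta, a subunit of farnesyltransferase, rose by 0.30 (adjusted p = 0.0304) and Rce1, a protease of farnesylated proteins, fell by 0.29 (0.0392). Zmpste24, which cleaves prelamin A, was at 0.17 (0.306). Of 8 heterochromatin partners, Cbx5, a heterochromatin protein that binds Lbr, fell by 0.69 (0.00117) and Rb1, which binds A-type lamins, rose by 0.64 (0.000763). Of 9 genes of envelope assembly 1 passed, Chmp7, which recruits the membrane-sealing machinery, with a rise of 0.36 (0.0423).

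Cell cycle genes went the same way as the lamina probes that passed in Sirt6-/- against wild-type and in Sirt6-/-RelA-/- against Sirt6-/- cells. Loss of Sirt6 was accompanied by lower levels of 20 of the 23 measured and higher levels of 0, with a median of -1.08. With RelA deleted as well, 21 were above their Sirt6-/- level, with a median of 0.93. On every Sirt6-/- array Plk1, Foxm1, Bub1b, Ccna2, Mcm7 and Kif11 stayed below the intensity that the rule for testing requires, at 85.2 or less. The rule thus favoured a fall of these genes with loss of Sirt6 and a rise with RelA deleted as well. The counts and medians include them. Plk1, a mitotic kinase, fell by 3.13 with loss of Sirt6, and in Sirt6-/-RelA-/- cells it was still at -2.03 relative to wild-type cells (adjusted p = 1e-06), where the list had a median of -0.15 with 4 lower and 1 higher. The list summed to 14510 to 16890 on wild-type, to 7858 to 9626 on Sirt6-/- and to 13730 to 16430 on Sirt6-/-RelA-/- arrays. The part of the cell cycle in the lamina results was not tested.

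**Figure D4:**
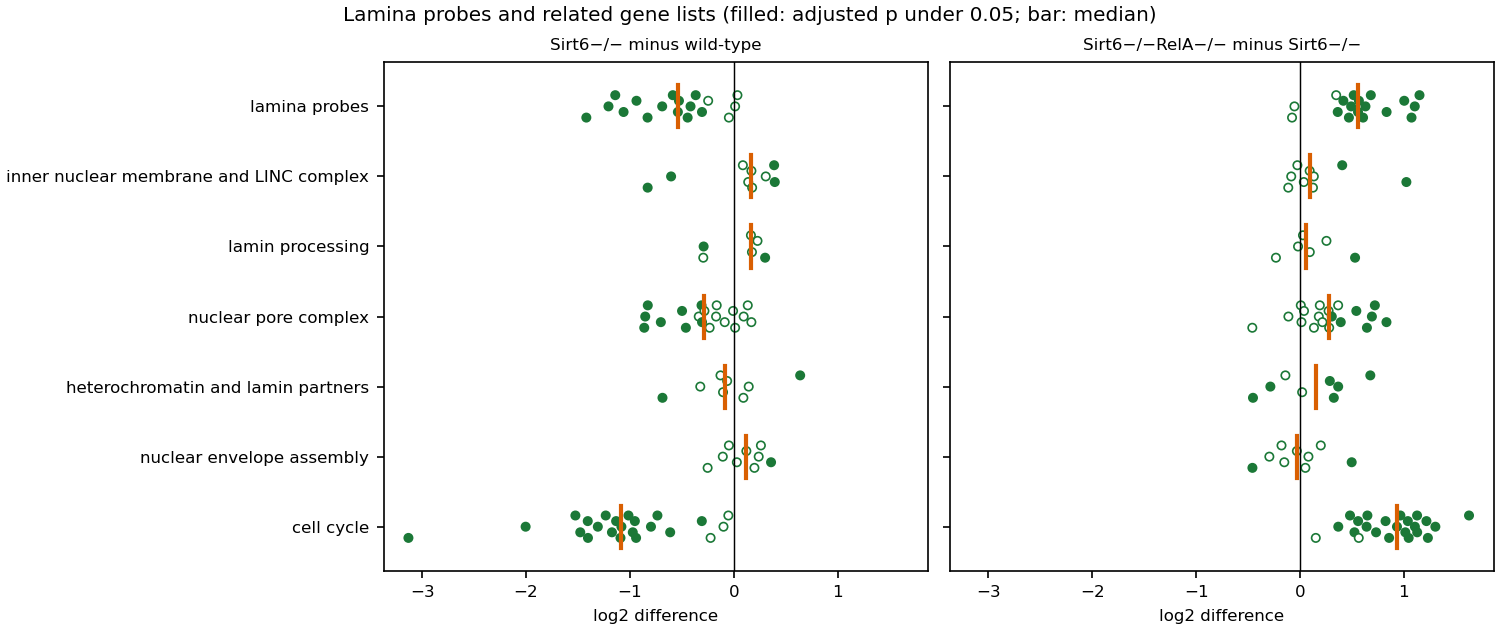
Log2 differences in Sirt6-/- against wild-type cells (left) and in Sirt6-/-RelA-/- against Sirt6-/- cells (right) for the 18 lamina probes and for genes of each list, 1 point for 1 probe or gene. Filled points have an adjusted p under 0.05 and orange bars are medians, which for the lamina probes were -0.53 and 0.56 and for the cell cycle genes -1.08 and 0.93.

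Genes whose levels went most like each member over the 12 arrays were found by Pearson correlation of log2 intensity among all tested probes, as a description, since the arrays share 3 genotypes. For the brighter Lmnb1 probe they were Psmc3ip, Cenpp and Zbtb8os (r of 0.98, 0.98 and 0.98), and for the first Tmpo probe Ndc80, Siah1b and Aurka (0.97 each), of which Ndc80 builds kinetochores and Aurka is a mitotic kinase. For Lbr they were Capn2, Pvr and Arsj (0.98, 0.97 and 0.97), for Lmnb2 Cenps, Gm10052 and Mre11a (0.97, 0.96 and 0.96), and for the first Banf1 probe Foxm1, a transcription factor of the cell cycle, Stk24 and Anapc15 (0.97, 0.96 and 0.96). Among the members, Lmnb1, Lbr and Tmpo correlated at 0.89 to 0.92 with each other, at ranks of 89 to 187 among all genes tested. Lmnb2 and Banf1 correlated with these 3 at 0.79 to 0.88. The first Lmna probe correlated with Lmnb1, Lbr and Tmpo at 0.16 to 0.23 and with Emd at 0.66. Its nearest genes were Dusp11, Get4 and Eef1akmt1 (0.97, 0.95 and 0.94). For Emd they were Plpp3, Fam20b and Arpc5 (0.91, 0.90 and 0.90). Each member was represented by its brightest probe alone, so these correlations do not cover the other Lmna probes. The first Lmna probe and the brighter Emd probe had their lowest value on the same array, the untreated wild-type one (3405 and 539). By the other Lmna probes every Sirt6-/- array lay below every Sirt6-/-RelA-/- array, as for Lmnb1, Lbr and Tmpo.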

How the data were processed

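RNA of 12 MEF cultures was labelled with Cy5 and hybridized to Illumina mouse bead arrays. The authors deposited linear intensities, from which background had been subtracted and which had been brought to a like scale over arrays. The labels name GenomeStudio, with a version and settings not given in the sources used here. Negative values made up 17.7% of all values. A second table of non-normalized signals was not used, because its columns could not be assigned to samples by name. The number of arrays limits the precision.

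Intensities below a floor of 16 were raised to it before taking log2. Of 25697 probes, 23978 have 1 gene symbol and 1719 none. Probes at 100 or more on any array, the detection value of the methods, were tested (8530). A linear model of genotype plus time was fitted to the 12 arrays with limma 3.58.1 (R 4.3.3) for genotypes and times, and another to responses to TNF-α with genotype, treatment and their interaction, each with Benjamini-Hochberg adjustment over all probes tested. Probes of a gene were compared within arrays by exact permutation tests. The fits were tested on simulated data. The text names every probe of the 7 genes, the 3 largest called genes of each related list at most and the 3 most alike probes. Of the cell cycle list up to 2 genes were to be named. Foxm1, Bub1b, Ccna2, Mcm7, Kif11, Nup50 and Nup155 were added to state the limit of the rule for testing. They, Tor1aip2, Zmpste24, Eif2s3y and the markers of cell types were named after their values were seen. Members and lists were chosen with earlier results of these data known. Alternatives covered the detection filter, the floor, an offset, 2 scalings, the probe rule, the variance prior, the model terms and each array or time left out. Python 3.11.15 and matplotlib 3.10.9 drew the figures.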

Additional observations from a re-analysis of the deposited data

How the results depend on the processing

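Of the 14 probe calls of Sirt6-/- against wild-type cells 9 were kept in every alternative, of the 15 of Sirt6-/-RelA-/- against Sirt6-/- cells 12, and of the 3 of Sirt6-/-RelA-/- against wild-type cells 0. With 1 probe per gene the counts were 5, 5 and 0 of 7, since 7 probes were counted. The third count was 1 with no detection filter, 1 with quantile normalization and 0 with 2 genotypes in the fit, and the cause was not tested. With an array or a time left out the counts were 11 to 14, 12 to 16 and 0 to 3. Without a detection filter Lmna probe 3 (adjusted p = 0.152) and Banf1 probes 2, 3 and 4 (0.058, 0.126 and 0.133) lost their calls in Sirt6-/- against wild-type cells, where all 25697 probes were tested, and so did Banf1 probes 2, 3 and 4 in Sirt6-/-RelA-/- against Sirt6-/- cells (0.225, 0.129 and 0.162), while Lmna probe 4 passed with quantile normalization (0.0103), centring (0.0361), an offset (0.038), a variance trend (0.0411) or a detection value of 200 (0.0497).

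Signs turned in differences that had not passed. In Sirt6-/- against wild-type cells the Emd probes gave -0.0479 and -0.0153 with quantile normalization and -0.0011 and -0.0235 with centring on the median. In Sirt6-/-RelA-/- against wild-type cells quantile normalization gave -0.0609 and -0.0932 for Lmna probes 2 and 5 and -0.0347 and -0.061 for Banf1 probes 3 and 4, and centring gave -0.0123 for Lmna probe 5 and -0.0377 for Banf1 probe 4. The median of all probes moved by at most 0.06 with these scalings. With an array or a time left out the first Lmna probe ran from -0.254 to 0.113 and the Emd probes from -0.0745 to 0.128 and from -0.161 to 0.163 in Sirt6-/- against wild-type cells. The Emd probes ran from -0.128 to 0.01 and from -0.241 to 0.0366 in Sirt6-/-RelA-/- against Sirt6-/- cells and from -0.119 to 0.0471 and from -0.227 to 0.0857 against wild-type cells. In the last comparison Lmna probe 5 ran from -0.035 to 0.0889, Tmpo probe 2 from -0.0129 to 0.162, and Banf1 probes 1, 3 and 4 from -0.184 to 0.0524, from -0.114 to 0.1998 and from -0.111 to 0.158.

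No paired analysis was possible because every label gives the same replicate number, beyond the matching of genotypes by time that the time term already makes. Dim probes, such as the second of Lmnb1, the third of Tmpo and the Lmnb2 probe, lie nearest to the detection value.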
